A study of Mus musculus with 8 samples.

Results

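The 39 genes described here encode the factors with which a mouse cell makes ribosomes in the nucleolus, and their RNA was measured in cultured spermatogonia with and without retinoic acid (RA) and nutrient restriction (NR). They are grouped by role as RNA polymerase I factors (5 genes), abundant nucleolar proteins (6), proteins of the box C/D (4) and box H/ACA (4) small nucleolar ribonucleoproteins (snoRNPs), and assembly factors of the small (11) and large (9) ribosomal subunits. The members were chosen by gene symbol from the known roles of the genes, with earlier results of these data known. All 39 were found among the 55421 genes of the count table, and all 39 were among the 20477 genes that passed the filter on low counts.

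RNA was sequenced from primary cultures of undifferentiated spermatogonia (spermatogonial stem cell or SSC culture), which had been set up from testes of 6-day-old C57BL/6XDBA/2 pups (F1 hybrids in the study's methods). Veh (vehicle) cells were kept in complete SSC medium, a medium with growth factors that include GDNF and bFGF, and RA cells received the same medium with 100 nM RA. NR cells received 10% complete medium in 90% Earle's Balanced Salt Solution (EBSS), and NRRA cells received this NR medium with 100 nM RA. Treatment lasted 2 days, and each condition had 2 libraries, which the study's methods describe as biological replicates. All cells shared a layer of irradiated mouse embryonic fibroblasts (MEFs) that served as feeders and whose RNA is part of each library. The NR medium held less of the growth factors as well as less of the nutrients, and the effects of both cannot be told apart.

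A ribosome begins as a long precursor RNA that RNA polymerase I transcribes from the repeated ribosomal DNA in the nucleolus. Small nucleolar RNAs in box C/D snoRNPs guide the methylation of this precursor, those in box H/ACA snoRNPs guide the conversion of uridine to pseudouridine, and large assemblies cut and fold it into the small and the large subunit. In many cell types the genes for these factors are transcribed more in growing and dividing cells, and nutrient supply is known to act on RNA polymerase I. In the testis, spermatogonia are the dividing germ cells that precede meiosis.

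The promoters of such genes are often rich in G and C and hold short motifs that activating factors read. A pair of motifs was searched on both strands in the 250 bases before the RefSeq start of each gene (build GRCm38.p6), namely CACGTG, the E-box read by MYC with MAX and by other factors, and CCGGAAG, a core read by ETS family factors. A match of CCGGAAG can share bases with a match on the other strand. The table of RefSeq promoters held 35 of the 39 members and not *Npm1*, *Fbl*, *Bop1* and *Rrp12*. CACGTG was found for 2 of the 35 (5.7%), *Nop2* and *Rrn3*, beside 6.9% of all 27025 genes of the table. CCGGAAG was found for 7 of the 35 (20%), *Gar1*, *Heatr1*, *Ltv1*, *Nhp2*, *Nip7*, *Nolc1* and *Nop2*, beside 7.8% of all genes, where a gene with several starts counted as having the motif if one of its starts did. The 4 sequences that follow are the 250 bases before the start, on the plus strand, with motif matches in capitals. They are shown because *Nop2* holds both motifs, *Nolc1* and *Heatr1* hold CCGGAAG close to the start and had unlike log2 values in NR, and *Polr1b* holds neither motif and was among the members with the lowest relative level in NRRA.
*Nop2*, chr6:125131633-125131882: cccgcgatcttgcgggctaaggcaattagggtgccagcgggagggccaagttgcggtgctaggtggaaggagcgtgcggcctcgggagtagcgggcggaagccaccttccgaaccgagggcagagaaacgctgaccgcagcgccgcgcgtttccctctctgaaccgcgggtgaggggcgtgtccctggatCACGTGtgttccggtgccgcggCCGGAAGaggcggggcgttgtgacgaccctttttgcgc
*Nolc1*, chr19:46075597-46075846: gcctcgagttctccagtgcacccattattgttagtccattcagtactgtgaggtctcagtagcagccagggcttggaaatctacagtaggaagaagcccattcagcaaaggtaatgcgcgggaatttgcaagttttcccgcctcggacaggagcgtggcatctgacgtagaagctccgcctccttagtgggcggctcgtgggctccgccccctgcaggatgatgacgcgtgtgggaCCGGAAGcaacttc
*Heatr1*, chr13:12395125-12395374: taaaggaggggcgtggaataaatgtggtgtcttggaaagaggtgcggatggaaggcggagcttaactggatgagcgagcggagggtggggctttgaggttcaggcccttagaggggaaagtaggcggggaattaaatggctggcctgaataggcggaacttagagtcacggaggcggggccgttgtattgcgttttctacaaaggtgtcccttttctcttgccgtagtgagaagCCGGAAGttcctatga
*Polr1b*, chr2:129100746-129100995: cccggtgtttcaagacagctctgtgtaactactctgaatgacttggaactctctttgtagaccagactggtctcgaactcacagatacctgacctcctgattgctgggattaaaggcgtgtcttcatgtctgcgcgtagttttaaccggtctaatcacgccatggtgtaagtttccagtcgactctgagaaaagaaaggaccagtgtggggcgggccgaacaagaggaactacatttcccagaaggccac
In *Nop2*, CACGTG began 60 bases and CCGGAAG 38 bases before the start. CCGGAAG began 14 bases before the start of *Nolc1* and 16 bases before that of *Heatr1*. A match is a description of these letters and shows neither binding nor regulation.

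Total counts ranged from 19261333 to 30023585 per library, so that 1 CPM (1 count in 1000000, with totals scaled by TMM factors) stood for 19.2 to 31.1 reads, and the single lowest count of a member was 495. The 8 germ cell markers, *Ddx4* and *Dazl* among them, were detected in all libraries, with 0 markers at 0. Their sum was 914 to 952 CPM in Veh, 1027 to 1088 in RA, 1123 to 1142 in NR and 1216 to 1242 in NRRA. Compared with Veh, 4 of the 8 were higher and 3 lower in RA, 6 higher and 1 lower in NR, and 5 higher and 3 lower in NRRA. Such calls (edgeR adjusted p under 0.05) were common among all 20477 genes tested. The RA comparison gave 8842 calls in either direction, NR gave 8993 and NRRA gave 12050. Lower genes made up 54.2%, 50.6% and 48.8% of these calls. All marker counts given here stand beside this background. Markers of other states and cell types moved with the conditions as well. The summed level of 10 markers of undifferentiated spermatogonia was 986 to 1069.8 CPM in Veh, 391 to 395 in RA, 843 to 861 in NR and 197 to 199 in NRRA. Of the 10 genes, 9, 6 and 9 were lower than in Veh in RA, NR and NRRA, with 2 higher in NR. Of 8 markers of differentiating spermatogonia, 4, 5 and 6 were higher and 1, 2 and 2 lower in RA, NR and NRRA. Their sum was 1521 to 1549 CPM in Veh, 1968 to 1996 in RA, 1251 to 1267 in NR and 2353 to 2409 in NRRA. In NR this sum was thus below Veh although most of the markers were higher. *Ccnd2*, the most abundant of them in Veh, had 1258 and 1298 CPM in Veh and 978 and 990 in NR. The sum of 12 fibroblast markers was 12183 to 12401 CPM in Veh, 9329.7 to 10081 in RA, 25203 to 26514 in NR and 21820.1 to 22435 in NRRA, with 0 markers at 0 in a library. Compared with Veh, 9 of these 12 were lower in RA, 10 were higher and 1 lower in NR, and for NRRA 8 were higher and 4 lower. The part of these shifts in the changes of the ribosome biogenesis genes was not tested.

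Most of the 39 genes had their highest level in Veh and their lowest in NRRA. Against Veh, 31 genes were lower in RA, 26 in NR and 35 in NRRA, with changes that were mostly under 2-fold. As a share of all counts of a library, the 39 genes took 0.579% and 0.589% (Veh), 0.523% and 0.538% (RA), 0.543% and 0.531% (NR), and 0.479% and 0.482% (NRRA). Both NRRA libraries were thus below all others, and both Veh libraries were above all others. These are bulk libraries, in which fewer cells of a type and less RNA per cell cannot be told apart. The condition mean was highest in Veh for 32 genes and lowest in NRRA for 30, and 27 genes (against 18.5% of all genes tested) had both. Shares over all genes tested were not computed for the counts of 32 and 30. The order of means was Veh, NR, RA, NRRA from high to low for 17 genes and Veh, RA, NR, NRRA for 10, also without such a share. The order of NR and RA rests in part on small differences. For *Utp20* the means were 242.86 CPM in NR and 242.82 in RA, and 17 of the 39 genes had no call in NR vs RA. Both NRRA libraries were below both Veh libraries for 36 genes, beside 36.8% of all genes tested.

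**Figure D1:**
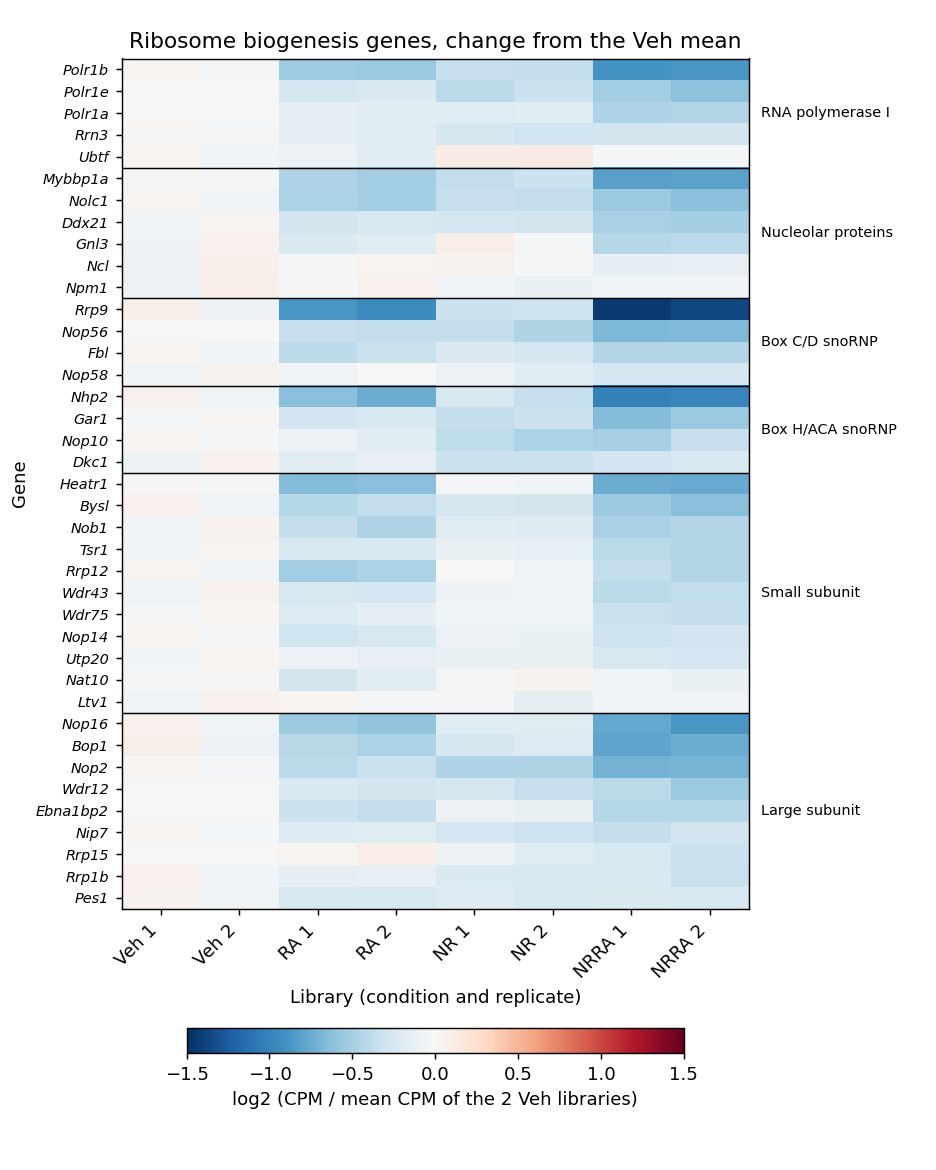
Level of the 39 genes in each of the 8 libraries as log2 of the CPM over the mean CPM of the 2 Veh libraries, with genes in rows grouped by role and libraries in columns. Blue marks a level below the Veh mean, and the NRRA columns are the darkest for most genes, with *Rrp9* and *Nhp2* the lowest.

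Against Veh, 31 of the 39 genes were lower in RA and 0 were higher, where 23.4% of all genes tested were called lower, and the median log2 fold change of the members was -0.249 (range -0.912 to 0.069; all genes tested -0.019). Calls are adjusted p under 0.05 in edgeR's quasi-likelihood test with Benjamini-Hochberg adjustment over all 20477 genes, with 1 spread shared by all conditions. The 8 genes that were not called in RA were *Ncl*, *Npm1*, *Nop58*, *Dkc1*, *Nop10*, *Ltv1*, *Rrp1b* and *Rrp15*. With total counts in place of TMM scaling, 20 genes were lower and 2 higher, *Npm1* and *Rrp15*, and the 11 that lost the call were *Polr1a*, *Polr1e*, *Rrn3*, *Ubtf*, *Gnl3*, *Gar1*, *Wdr75*, *Utp20*, *Nat10*, *Wdr12* and *Nip7*. In NR, 26 genes were lower (all genes tested 22.2%) and 1 was higher, *Ubtf* (all genes tested 21.7%), with a median of -0.214 (range -0.454 to 0.121; all genes tested 0.006). In NRRA, 35 genes were lower (all genes tested 28.7%) and 0 higher, with a median of -0.425 (range -1.401 to -0.029; all genes tested 0.030). The 4 genes without a call in NRRA were *Ubtf*, *Npm1*, *Nat10* and *Ltv1*. With offsets for GC content and length, the counts of lower genes in RA, NR and NRRA were 34, 35 and 37, and the 9 genes newly called in NR were *Ncl*, *Npm1*, *Wdr43*, *Wdr75*, *Heatr1*, *Nop14*, *Ltv1*, *Rrp15* and *Ebna1bp2*. The offsets took both from the longest annotated transcript of each gene, which need not be the form expressed. It had 8202 bases for *Ncl*, 9507 for *Nop58* and 10012 for *Wdr12* (median of the 39 genes 3226), so that the offset values of these genes are less certain. The 3 comparisons share the Veh libraries, so that a deviation of a Veh library enters all of them. Side by side, 22 genes were called lower in both RA and NR (all genes tested 10.6%), 9 in RA and not in NR (12.9%), 4 in NR and not in RA (11.7%), and 4 in neither (64.9%). Only *Npm1* and *Ltv1* had no call in any of the 3 (all genes tested 28.7%), and both were called lower in NR and NRRA with the offsets.

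**Figure D2:**
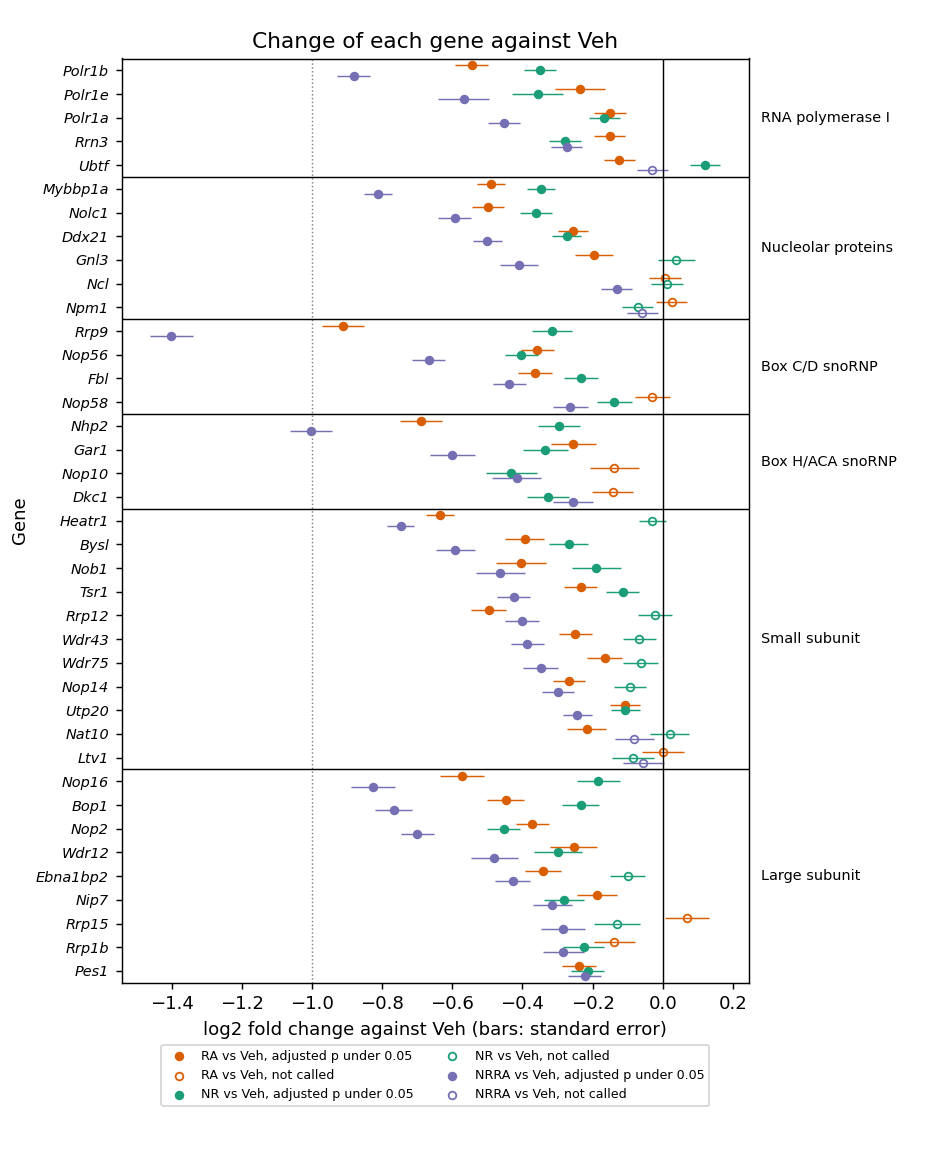
The log2 fold change of each of the 39 genes against Veh in RA, NR and NRRA, with standard errors as bars. Filled points passed the test and open points did not, the dotted line marks a 2-fold decrease, and *Rrp9* and *Nhp2* lie at or beyond it in NRRA.

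Among the RNA polymerase I factors, 5 of 5 were lower in RA, 4 of 5 in NR and 4 of 5 in NRRA than in Veh. *Polr1b* (chr2:129100995-129126594, plus strand) encodes the second largest subunit of the enzyme and had the largest change of this group. Its level was 143 and 137 CPM (Veh), 97.0 and 95.3 (RA), 110.1 and 109.8 (NR), and 75.6 and 76.5 (NRRA). No library overlapped one of another condition, and the order was Veh, NR, RA, NRRA from high to low. On the log2 scale the change from Veh was -0.55 with RA (SE 0.047, edgeR adjusted p = 2.2e-10), -0.35 with NR (SE 0.047, adjusted p = 4.86e-07) and -0.88 with NRRA (SE 0.047, adjusted p = 2.17e-15), a 1.84-fold decrease. *Ubtf* (chr11:102304560-102319742, minus strand) encodes the upstream binding factor that keeps ribosomal DNA open for transcription, and it behaved differently from the rest. Its level was 187 and 178 CPM (Veh), 171 and 164 (RA), 197 and 199 (NR), and 179 and 178 (NRRA). The NR libraries were above all others and the RA libraries below all others, while the NRRA libraries fell between those of Veh. *Ubtf* rose by 0.12 on the log2 scale in NR (SE 0.044, edgeR adjusted p = 0.0259) and fell by 0.12 in RA (SE 0.044, adjusted p = 0.0241), while the NRRA value was -0.029 (SE 0.043, adjusted p = 0.587). The rise in NR was not called without NR replicate 2 (adjusted p = 0.0863), without NRRA replicate 1 (0.0511) or 2 (0.0519), or with DESeq2 (0.0913). The fall in RA was not called without Veh replicate 1 (adjusted p = 0.232), RA replicate 2 (0.222), NR replicate 1 (0.0889) or NR replicate 2 (0.0941). It was also not called with total counts only (-0.022, adjusted p = 0.71) or with the offsets (-0.039, adjusted p = 0.365). *Polr1a*, the largest subunit, *Polr1e*, a subunit that acts in initiation and elongation, and *Rrn3*, the initiation factor that recruits the enzyme, were lower in all 3 conditions. In RA the calls of *Polr1a* and *Rrn3* were lost without RA replicate 2 (-0.147 and -0.141) and that of *Polr1e* without RA replicate 1 (-0.218) or with the offsets (-0.158), and in NR that of *Polr1a* was lost without NR replicate 1 (-0.134). Their log2 fold changes in NRRA were -0.45, -0.57 and -0.27.

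Of the 6 nucleolar proteins, 4 were lower in RA, 3 in NR and 5 in NRRA. *Mybbp1a* (chr11:72441355-72451768, plus strand) encodes a Myb-binding protein of the nucleolus that takes part in ribosomal RNA transcription and processing. Its level was 475 and 465 CPM (Veh), 341 and 329 (RA), 363 and 376 (NR), and 267 and 269 (NRRA). The conditions did not overlap, and NRRA was 1.75-fold below Veh (log2 fold change -0.81, SE 0.039, edgeR adjusted p = 2.39e-16). *Nolc1* (chr19:46075863-46085530, plus strand), whose promoter is printed above, encodes a chaperone that shuttles snoRNPs to the nucleolus. It had 174 and 165 CPM (Veh), 121 and 118 (RA), 132 and 131 (NR), and 115 and 109 (NRRA). Again no condition overlapped another, and the NRRA libraries were close below the RA libraries. The change of *Nolc1* from Veh was -0.50 with RA (SE 0.047, edgeR adjusted p = 1.08e-09), -0.36 with NR (SE 0.046, adjusted p = 2.52e-07) and -0.59 with NRRA (SE 0.046, adjusted p = 8.22e-12) on the log2 scale. *Gnl3* (chr14:31012433-31019152, minus strand) encodes nucleostemin, a nucleolar GTP-binding protein known from stem cells and dividing cells. Its level was 102 and 112 CPM (Veh), 91.9 and 94.5 (RA), 114 and 106 (NR), and 79.6 and 81.1 (NRRA). The NRRA libraries were the lowest, the RA libraries were next, and the NR libraries lay on both sides of the higher Veh library. *Gnl3* was lower in RA (-0.20, SE 0.054, edgeR adjusted p = 0.00417) and under NRRA (-0.41, SE 0.054, adjusted p = 1.93e-07), and in NR the log2 value was 0.039 (adjusted p = 0.598). With total counts only, the RA value of *Gnl3* was -0.095 and not called (edgeR adjusted p = 0.172). Without Veh replicate 2 the RA value was -0.11 and not called (adjusted p = 0.0934), and the NR value was 0.12 and called higher (adjusted p = 0.0465).

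*Npm1* (chr11:33152287-33163206, minus strand) encodes nucleophosmin, a chaperone of ribosomal proteins and histones, and it was the member with the highest level per length, 230 CPM per kilobase of exon in Veh. Its level was 577 and 649 CPM (Veh), 608 and 639.7 (RA), 596 and 570.1 (NR), and 585 and 593 (NRRA). The 2 Veh libraries were the farthest apart and spanned those of RA and NRRA, and the NR libraries lay below those of RA. The log2 fold changes from Veh with RA, NR and NRRA were 0.026, -0.072 and -0.058 (edgeR adjusted p = 0.685, 0.209 and 0.28). Its call depended on the processing: with offsets for GC content and length the value in RA was -0.175, in NR -0.211 and in NRRA -0.299, and without Veh replicate 1 the values in NR and NRRA were both -0.137, all called lower. The value in RA was called higher without Veh replicate 2 (0.13) and with total counts only (0.127). Exon sequence of *Npm1* has 4 near-identical copies elsewhere in the genome, whose counts came to 3.11% of its own. *Ncl*, which encodes nucleolin, was lower in NRRA (-0.13, edgeR adjusted p = 0.013), with log2 values of 0.0062 in RA and 0.012 in NR that were not called. The call of *Ncl* was lost without Veh replicate 2, NRRA replicate 1 or NRRA replicate 2 and with total counts only. *Ncl* was called lower in RA (-0.236) and NR (-0.254) with the offsets, and higher in both (0.108 and 0.11) without Veh replicate 2. *Ddx21*, an RNA helicase that links RNA polymerase I and II transcription to RNA processing, was lower in all 3 conditions, with -0.26, -0.27 and -0.50.

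**Figure D3:**
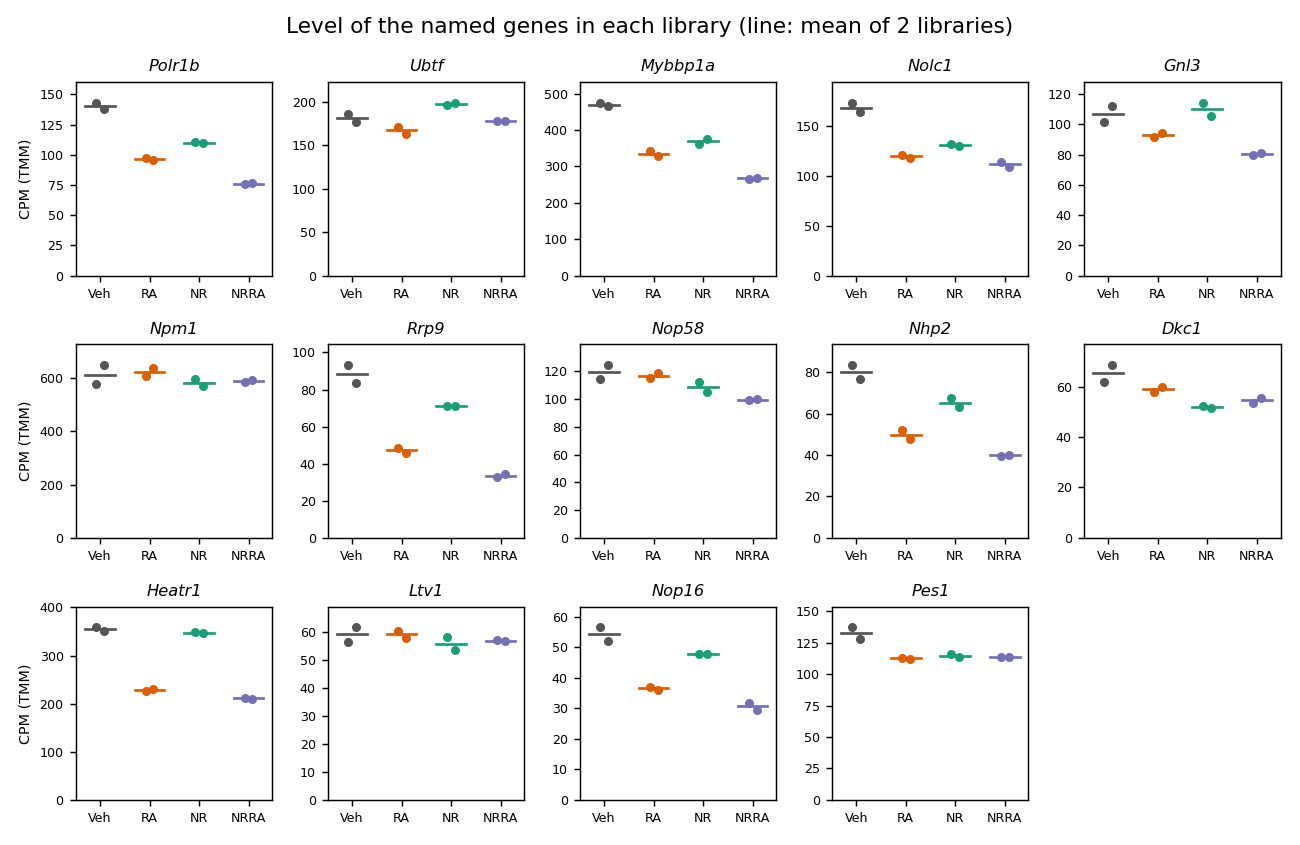
CPM of the 14 genes described in full, 1 panel per gene with its own axis from 0, where points are the 2 libraries of a condition and the line is their mean. The NRRA points are the lowest in the panels of *Polr1b*, *Mybbp1a*, *Rrp9*, *Nhp2*, *Heatr1* and *Nop16*, while the Veh and NRRA points overlap for *Npm1* and *Ltv1*.

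The 4 box C/D proteins were all lower in NR and in NRRA, and 3 of 4 were lower in RA. *Rrp9* (chr9:106475963-106485424, plus strand) encodes a protein that is specific to the U3 snoRNP, which is needed for the first cuts of the precursor, and it had the largest change of all 39 genes. Its level was 93.1 and 83.6 CPM (Veh), 48.3 and 45.9 (RA), 70.9 and 71.1 (NR), and 32.6 and 34.3 (NRRA). The 4 conditions were fully apart, in the order Veh, NR, RA, NRRA from high to low. On the log2 scale the change from Veh was -0.91 with RA (SE 0.06, edgeR adjusted p = 6.58e-13), -0.32 with NR (SE 0.057, adjusted p = 4.66e-05) and -1.40 with NRRA (SE 0.061, adjusted p = 1.66e-17), which is 2.64-fold below Veh. NRRA was also 2.12-fold below NR (log2 fold change -1.08, SE 0.061, adjusted p = 1.54e-14). *Nop58* (chr1:59684971-59719044, plus strand), a core protein of all box C/D snoRNPs, had the smallest NRRA change of this group. Its level was 115 and 125 CPM (Veh), 115 and 119 (RA), 112 and 106 (NR), and 99.5 and 99.8 (NRRA). The NRRA libraries were below all others, while the RA and Veh libraries overlapped. *Nop58* was lower in NR (-0.14, SE 0.051, edgeR adjusted p = 0.0285) and under NRRA (-0.26, SE 0.05, adjusted p = 5.36e-05), with -0.03 in RA (adjusted p = 0.671). With offsets for GC content and length the RA value of *Nop58* was -0.356 and called lower (edgeR adjusted p = 2.91e-10). The call in NR was lost without Veh replicate 2 (-0.067), NR replicate 1 (-0.161) or NR replicate 2 (-0.077). *Fbl*, the methyltransferase fibrillarin, and *Nop56*, the partner of Nop58, were lower in all 3 conditions, with NRRA values of -0.44 and -0.67.

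The 4 box H/ACA proteins, which also form part of telomerase, were all lower in NR and in NRRA, and 2 of 4 were lower in RA. *Nhp2* (chr11:51619735-51623714, plus strand), a core RNA-binding protein, had 83.4 and 76.5 CPM (Veh), 51.9 and 47.6 (RA), 67.6 and 63.0 (NR), and 39.6 and 40.2 (NRRA). All 4 conditions were apart, in the order Veh, NR, RA, NRRA. On the log2 scale the change from Veh was -0.69 with RA (SE 0.061, edgeR adjusted p = 3.45e-10), -0.30 with NR (SE 0.059, adjusted p = 0.000173) and -1.003 with NRRA (SE 0.061, adjusted p = 3.73e-14). *Dkc1* (chrX:75095854-75109777, plus strand) encodes dyskerin, the pseudouridine synthase of these particles. Its level was 62.0 and 68.5 CPM (Veh), 58.1 and 60.0 (RA), 52.4 and 51.7 (NR), and 53.6 and 55.6 (NRRA). Both Veh libraries were above all others, and the NR libraries were below all others. *Dkc1* was lower in NR (-0.33, SE 0.059, edgeR adjusted p = 4.79e-05) and under NRRA (-0.26, SE 0.058, adjusted p = 0.000386), while its RA value of -0.14 had an adjusted p of 0.051, and it passed without Veh replicate 1 (-0.19, adjusted p = 0.00901). The RA value of *Dkc1* also passed with the offsets (-0.283, edgeR adjusted p = 4.86e-06), the replicate block (-0.144, 0.0467), DESeq2's size factors (-0.145, 0.0452) and no filter on low counts (-0.152, 0.0481). *Nop10*, the smallest core protein, had -0.43 in NR and -0.42 in NRRA, both called, and -0.14 in RA, not called except with the offsets (-0.164). *Gar1*, the remaining core protein, was lower in all 3 conditions and reached -0.60 in NRRA. In the direct comparison of NR with RA, *Dkc1* (-0.18, edgeR adjusted p = 0.0104) and *Nop10* (-0.29, adjusted p = 0.00111) were lower in NR, and *Nhp2* was higher (0.39, adjusted p = 4.12e-06). The call of *Dkc1* was lost without RA replicate 2 (-0.16) or NR replicate 2 (-0.181) and with DESeq2 (-0.184).

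Of the 11 small-subunit factors, 10 were lower in RA, 9 in NRRA and 4 in NR, and the medians of the log2 fold change were -0.249 in RA, -0.386 in NRRA and -0.084 in NR. The count in NR depended on the processing. With offsets for GC content and length, 9 of the 11 were lower in NR, with a median of -0.151, and with total counts only 1 was, *Bysl*. *Heatr1* (chr13:12395027-12440289, plus strand) encodes a factor of the early processome that also supports RNA polymerase I transcription, and its promoter is printed above. Its level was 359 and 352 CPM (Veh), 227 and 230.3 (RA), 349 and 346 (NR), and 212 and 211 (NRRA). The RA and NRRA libraries were all far below the Veh and NR libraries, which were close to each other. *Heatr1* was 1.55-fold lower in RA (log2 fold change -0.63, SE 0.039, edgeR adjusted p = 2.13e-13) and 1.68-fold lower in NRRA (-0.75, SE 0.039, adjusted p = 1.34e-15), and its NR value was -0.03 (SE 0.039, adjusted p = 0.572). With offsets for GC content and length the NR value was -0.142 and called (adjusted p = 0.000117). Tested directly, *Heatr1* was higher in NR than in RA by 0.60 (SE 0.039, edgeR adjusted p = 1.92e-13), the largest such difference of the 39 genes. *Rrp12*, a factor of nuclear export of the subunits, had the same calls against Veh, with -0.50 (RA), -0.022 (NR) and -0.40 (NRRA). Unlike that of *Heatr1*, the mean of *Rrp12* was higher in NRRA (92.3 CPM) than in RA (86.3), which was not called. Its level was higher in NR than in RA by 0.47 (edgeR adjusted p = 5.01e-09).

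*Ltv1* (chr10:13178140-13193168, minus strand) encodes a factor of late assembly of the small subunit, and it was called in none of the 7 comparisons of the edgeR fit with TMM scaling. Its level was 56.7 and 61.8 CPM (Veh), 60.7 and 58.1 (RA), 58.4 and 53.5 (NR), and 57.3 and 56.8 (NRRA). The Veh libraries spanned those of RA and NRRA and overlapped those of NR, and the log2 values against Veh were 0.0015 in RA, -0.084 in NR and -0.055 in NRRA (SE 0.06, 0.061 and 0.059; edgeR adjusted p = 0.988, 0.28 and 0.445). With offsets for GC content and length, *Ltv1* was called lower in NR (-0.151) and in NRRA (-0.171). *Ltv1* was 1 of the 7 members with CCGGAAG before the start. The other 6 were called lower in RA and in NRRA, beside 31 and 35 of all 39 members (all genes tested 23.4% and 28.7%). In NR, 5 of the 7 were called lower, beside 26 of the 39 (all genes tested 22.2%). The counts of these 7 were thus near those of all members. *Nat10*, the acetyltransferase of the small-subunit RNA, was lower in RA (-0.22, SE 0.056, edgeR adjusted p = 0.00247) but was not called in NRRA against Veh (-0.081, SE 0.055, adjusted p = 0.213). *Wdr43* and *Wdr75*, which with *Heatr1* belong to the group of processome proteins needed for transcription of ribosomal DNA, were lower in RA (-0.25 and -0.17) and NRRA (-0.39 and -0.35) and not called in NR (-0.066 and -0.063). The same calls were made for *Nop14*, a processome scaffold, with an NRRA value of -0.30. With the offsets, *Wdr43* (-0.159), *Wdr75* (-0.153) and *Nop14* (-0.102) were called lower in NR, as was *Nop14* without Veh replicate 2 (-0.112). The RA call of *Wdr75* was lost without RA replicate 1 (-0.134) or Veh replicate 2 (-0.116). *Bysl*, *Nob1*, *Tsr1* and *Utp20* were lower in all 3 conditions, with NRRA values of -0.59, -0.46, -0.42 and -0.24. Bysl and Tsr1 act on late precursors of the small subunit, Nob1 makes the last cut of its RNA, and Utp20 is a large processome protein. The NR calls of *Nob1*, *Tsr1* and *Utp20* were each lost with total counts only (-0.157, -0.082 and -0.074) and without NR replicate 1, NR replicate 2 or Veh replicate 2, and the RA call of *Utp20* in 7 of the 8 fits that each left out 1 library. Exon bases of *Tsr1* overlapped *Srr* on the opposite strand over 32.3% and those of *Bysl* overlapped *Ccnd3* over 9.4%, and the strand setting of the counting was not given, so that these values are uncertain.

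All 9 large-subunit factors were lower in NRRA, and 7 were lower in RA and 7 in NR. *Nop16* (chr13:54584185-54590090, minus strand), an assembly factor of the early large subunit, had 56.6 and 52.1 CPM (Veh), 37.2 and 36.0 (RA), 47.7 and 48.0 (NR), and 31.8 and 29.6 (NRRA). The conditions were apart, with NRRA lowest, then RA and NR. On the log2 scale the change from Veh was -0.57 with RA (SE 0.063, edgeR adjusted p = 2.45e-08), -0.18 with NR (SE 0.061, adjusted p = 0.0165) and -0.83 with NRRA (SE 0.063, adjusted p = 5.32e-12). The NR call was lost without Veh replicate 1 (-0.103), NR replicate 1 (-0.159) or NR replicate 2 (-0.172) and with DESeq2 (-0.194). *Pes1* (chr11:3963975-3980004, plus strand) forms with Bop1 and Wdr12 the PeBoW complex, which is needed to mature the large subunit RNA. Its level was 137 and 128 CPM (Veh), 113 and 112 (RA), 116 and 113 (NR), and 114 and 114 (NRRA). Both Veh libraries were above all others, and the libraries of the 3 treatments lay together between 112 and 116 CPM. The log2 values were -0.24, -0.21 and -0.22 in RA, NR and NRRA (SE 0.048, 0.048 and 0.047; edgeR adjusted p = 0.000171, 0.000534 and 0.00018). The partner *Bop1* moved differently, with -0.45, -0.23 and -0.77, all called. *Wdr12* had -0.25, -0.30 and -0.48, but its counts are uncertain, since it shares near-identical sequence with 6 other genes. The whole counts of those genes came to 299% of its own, and the part that fell on shared sequence was not measured. *Nop2*, a methyltransferase of the large-subunit RNA whose promoter holds both motifs, was lower in RA (-0.37), NR (-0.45) and NRRA (-0.70), and its NR value was the lowest of all 39. *Nip7*, which acts on precursors of the large subunit, was also lower in all 3 conditions, with an RA call that was lost without Veh replicate 1 (-0.133). *Ebna1bp2*, another assembly factor, was called in RA (-0.34) and NRRA (-0.43), *Rrp1b*, a nucleolar protein of early particles, in NR (-0.23) and NRRA (-0.28), and *Rrp15*, which acts in maturation of the precursor RNA, in NRRA (-0.28). The NR call of *Rrp1b* was lost without Veh replicate 1 (-0.143).

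**Figure D4:**
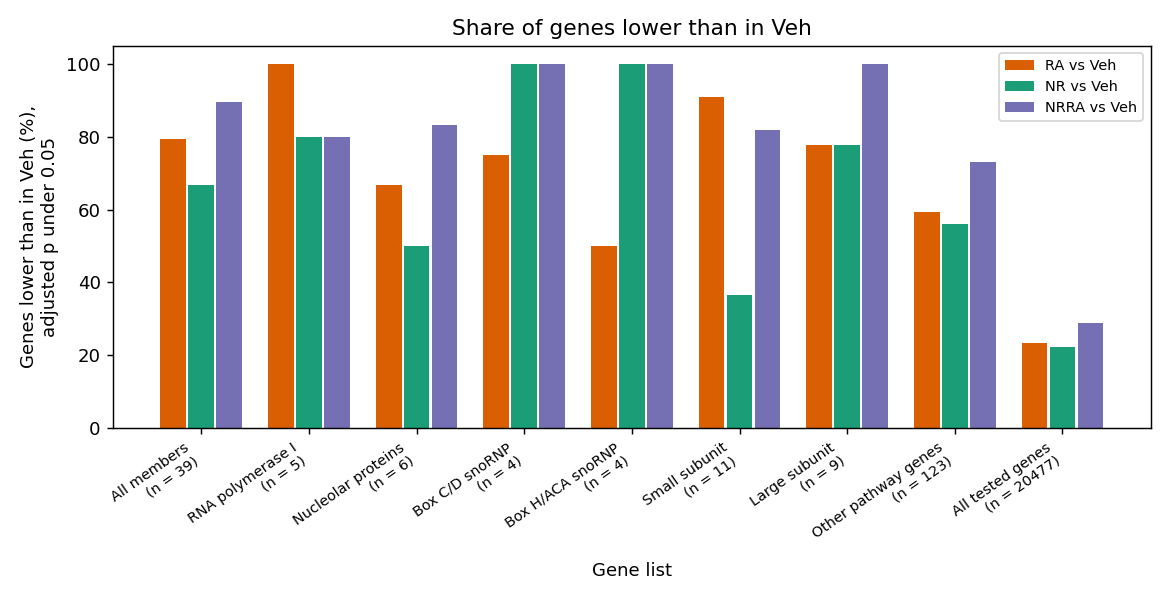
Percent of genes called lower than Veh (bars from 0) in RA, NR and NRRA for the 39 genes, their 6 role groups, 123 other genes of the pathway and all 20477 genes tested. With TMM scaling, as drawn, the bar for the small-subunit factors in NR (4 of 11) is the lowest among the role groups, while 9 of 11 were lower with offsets for GC content and length.

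With RA added to NR medium (NRRA vs NR), 29 of the 39 genes were lower (all genes tested 22.2%) and 0 were higher, with a median log2 fold change of -0.232 (range -1.085 to 0.071). The 10 genes without a call included *Rrn3* (0.0047), *Dkc1* (0.071), *Nop10* (0.015) and *Pes1* (-0.009). With NR added to RA (NRRA vs RA), 26 were lower (all genes tested 19.5%), with a median of -0.182, and 1 was higher, *Nat10* (all genes tested 20.9%). *Nat10* had 71.6 and 73.4 CPM (Veh), 59.9 and 64.5 (RA), 71.3 and 75.5 (NR), and 69.6 and 67.5 (NRRA). Its RA libraries were the lowest, and NRRA was above RA by 0.14 (SE 0.055, edgeR adjusted p = 0.0476), a call that was lost in 5 of the 8 fits that each left out 1 library. Without NRRA replicate 2, 16 genes were lower in NRRA than in RA. The 10 that lost the call were *Rrn3*, *Ncl*, *Wdr43*, *Wdr75*, *Utp20*, *Heatr1*, *Bysl*, *Wdr12*, *Nop16* and *Rrp1b*. In the fit to all 8 libraries, 22 of the 39 genes were lower in NRRA than under any other condition (all genes tested 8.45%), and 16 were also lower in both RA and NR than in Veh (4.99%). Both counts need a call in NRRA vs RA and in NRRA vs NR, and were not repeated with a library left out. Without NRRA replicate 2, NRRA vs NR also lost the calls of *Polr1e* (-0.166), *Ubtf* (-0.148), *Ncl* (-0.151), *Nop58* (-0.126), *Utp20* (-0.132) and *Wdr12* (-0.107). At a fold change of at least 2, *Rrp9* and *Nhp2* were lower in NRRA than in Veh (2 of 39; all genes tested 6.01%), and *Rrp9* was lower in NRRA than in NR (1 of 39; all genes tested 4.13%). Most members thus moved by less than 2-fold in every comparison.

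Compared directly, NR and RA differed for 22 of the 39 genes. In NR, 18 genes were higher than in RA (all genes tested 24.5%) and 4 were lower (all genes tested 23.8%), with a median log2 value of 0.103 (range -0.294 to 0.605). The 18 higher genes included 7 of the 11 small-subunit factors, with *Heatr1* (0.60), *Rrp12* (0.47) and *Nat10* (0.24) among them, and also *Rrp9* (0.60) and *Nop16* (0.39). The 4 lower genes were *Rrn3* (-0.13), *Dkc1* (-0.18), *Nop10* (-0.29) and *Rrp15* (-0.20), of which DESeq2 called *Nop10* only. The split depended on the scaling, with 13 higher and 12 lower when total counts alone were used and 17 higher and 11 lower with offsets for GC content and length.

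**Figure D5:**
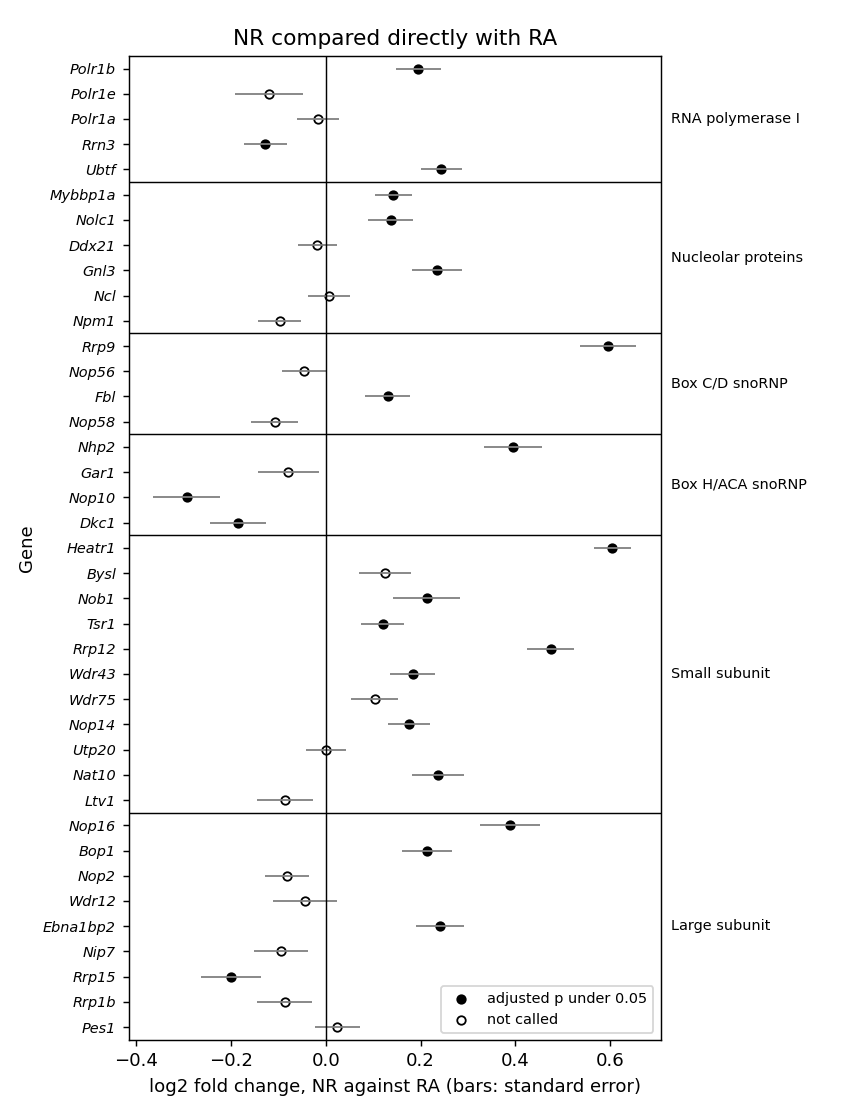
The log2 fold change of NR against RA for each of the 39 genes, with standard errors as bars, where filled points passed the test. *Heatr1*, *Rrp9* and *Rrp12* lie farthest to the right (higher in NR), and *Nop10* lies farthest to the left.

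Whether RA had the same effect in both media was tested with the interaction, the log2 fold change of RA in NR medium minus that in complete medium. For 36 of the 39 genes the interaction was not called, and the median was 0.024 (range -0.253 to 0.266; all genes tested 0.018). The 3 genes called, beside 13.1% of all genes tested in either direction, were *Nolc1* and *Pes1* above 0 and *Gnl3* below 0. RA lowered *Nolc1* by 0.50 in complete medium and by 0.23 in NR medium on the log2 scale, a difference of 0.27 (SE 0.066, edgeR adjusted p = 0.00611). *Pes1* had -0.24 in complete medium and -0.009 in NR medium, a difference of 0.23 (SE 0.067, edgeR adjusted p = 0.0202). *Gnl3* had -0.20 and -0.45, a difference of -0.25 (SE 0.076, edgeR adjusted p = 0.0243). The call of *Nolc1* was lost without NR replicate 1 (0.237), NR replicate 2 (0.221) or NRRA replicate 1 (0.235). That of *Gnl3* was lost without RA replicate 2 (-0.23), NR replicate 1 (-0.236), NRRA replicate 1 (-0.238) or NRRA replicate 2 (-0.265). That of *Pes1* was lost without Veh replicate 1 (0.142), RA replicate 2 (0.222), NR replicate 1 (0.206), NR replicate 2 (0.178), NRRA replicate 1 (0.229) or NRRA replicate 2 (0.233). Over the 8 fits that each left out 1 library, 0 to 7 members were called below 0, with 6 without Veh replicate 1 and 7 without Veh replicate 2. The median was then below 0 without Veh replicate 1 (-0.023), Veh replicate 2 (-0.009), NR replicate 1 (-0.013) or NR replicate 2 (-0.025). A missed call does not show that RA acted alike in both media.

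Levels differed widely among the members. Per kilobase of exon, the mean level in Veh was 230 CPM for *Npm1*, 81.0 for *Mybbp1a*, 71.5 for *Ncl* and 69.7 for *Nhp2*, and 3.47 for *Wdr12*, the lowest. In NRRA these levels were 221 for *Npm1*, 46.2 for *Mybbp1a*, 65.3 for *Ncl*, 34.8 for *Nhp2* and 2.49 for *Wdr12*. These values divide by all annotated exon bases of a gene, 10188 for *Ncl*, 1146 for *Nhp2* and 11955 for *Wdr12*. The order of the members therefore depends on this length as well as on the level. Before this division, the mean level of *Ncl* was 729 CPM in Veh and 665 in NRRA. That of *Nhp2* was 79.9 CPM in Veh and 39.9 in NRRA.

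Of 124 other genes of the same pathway, listed by role with earlier results of these data known, 123 were tested, and 73 were lower and 6 higher than Veh in RA, 69 lower and 8 higher in NR, and 90 lower and 7 higher in NRRA. Their median log2 fold changes were -0.194, -0.183 and -0.321. Of all genes tested, 23.4%, 22.2% and 28.7% were lower in RA, NR and NRRA, and 21.7% were higher in NR. Against RA, 57 were lower and 7 higher in NRRA (all genes tested 19.5% and 20.9%). Against NR, 58 were lower (all genes tested 22.2%) and 5 higher. NR compared with RA gave 27 lower and 32 higher, with a median of 0.007. These shares (22% and 26%) were near those of all genes tested (23.8% and 24.5%).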

How the data were processed

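The 8 RNA-seq libraries of SSC cultures, 2 in each of Veh, RA, NR and NRRA, were used, with groups and replicate numbers taken from the sample labels (NR is labelled EBSS and NRRA is labelled RA_EBSS). The authors deposited raw counts, in whole numbers, of the reads that fell on each gene. The submitters' processing notes name bcl2fastq, STAR 2.6.1c, featureCounts 1.6.4 and the mm10 build, and the strand setting of the counting was not given in the sources used here. Where 2 genes overlap on opposite strands, their counts are therefore uncertain. All 8 columns of counts were matched to a library by name.

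Counts were filtered by condition with filterByExpr of edgeR 4.0.16 (R 4.3.3), normalized with TMM and fitted with a robust quasi-likelihood model with 1 coefficient per condition over all 8 libraries (4 residual degrees of freedom, common biological coefficient of variation 3.35%). The 6 pairwise comparisons and the interaction were each tested with the F test of this model, p-values were adjusted after Benjamini and Hochberg over all tested genes, and the threshold was 0.05. Standard errors (SE) were taken as the size of the log2 fold change over the square root of F. The study's methods name DESeq2, which was run as an alternative (1.42.0). Replicates of each condition differed by more than sampling noise, with a chi-square per gene of 1.58 to 3.93, and p-values measure the spread between these libraries only. Replicate numbers were not treated as pairs in the main fit. Replicate differences correlated at -0.116 to 0.187 between conditions over 10899 genes, which cannot show whether the libraries were prepared in pairs.

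Coordinates are from GENCODE M21 (GRCm38) and promoters from RefSeq (GRCm38.p6). Near-identical copies were sought with BLAST 2.17.0 at 95% identity or more over 200 bases or more. GC content and length, both of the longest GENCODE transcript of a gene, could be computed for 20448 tested genes, all 39 members among them. Levels per kilobase used the joined length of all annotated exons of a gene. Figures were drawn with matplotlib 3.10.9. The members, their role groups and the lists of other pathway genes and markers were chosen with earlier results of these data known. Values in every library are given for the members with the most and the least negative NRRA vs Veh change of each role group, for those with a call against the direction of the members' median, for those past 2-fold, and for those with a called interaction. *Nat10* in NRRA vs RA and *Ncl* were given in addition, after their values were seen. The alternatives were DESeq2, DESeq2's size factors in edgeR, total counts without scaling factors, no filter on low counts, a block for the replicate number, offsets for GC content and transcript length, both together, a fold change of at least 2, and each library left out in turn.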

Additional observations from a re-analysis of the deposited data

Results flagged for a closer look

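For 3 genes the interaction test found unequal effects of RA in complete and in NR medium. *Nolc1* had a difference of 0.27 on the log2 scale (SE 0.066, edgeR adjusted p = 0.00611), with RA effects of -0.50 in complete and -0.23 in NR medium, and both NRRA libraries were below both NR libraries. *Pes1* had 0.23 (SE 0.067, edgeR adjusted p = 0.0202), with RA effects of -0.24 and -0.009, the second not called. *Gnl3* had -0.25 (SE 0.076, edgeR adjusted p = 0.0243), with RA effects of -0.20 and -0.45. With DESeq2, *Nolc1* was called (0.257, adjusted p = 0.018), and *Gnl3* (-0.262, adjusted p = 0.052) and *Pes1* (0.22, adjusted p = 0.068) were not. The libraries whose omission ended each call are given in the report.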

How the results depend on the processing

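In the 6 pairwise comparisons neither the members' median nor the balance of lower and higher calls turned its direction under the alternatives run. For the interaction, with a median of 0.024 and 1 gene below and 2 above 0, the median turned to -0.023, -0.009, -0.013 and -0.025 without Veh replicate 1, Veh replicate 2, NR replicate 1 and NR replicate 2. The calls turned to 6 below and 2 above 0 without Veh replicate 1, 7 and 3 without Veh replicate 2, and 1 and 0 without NR replicate 2. With total counts only, RA vs Veh gave 20 genes lower and 2 higher with a median of -0.148, the median in NRRA vs Veh was -0.311, NRRA vs RA gave 2 higher, NRRA vs NR 1 higher with a median of -0.151, and NR vs RA 12 lower with a median of 0.033. This setting moved the median of all genes tested in NRRA vs Veh from 0.030 to 0.143, and the share of lower genes among all calls from 54.2% to 35.6% in RA vs Veh, from 48.8% to 37% in NRRA vs Veh, from 51.1% to 36.3% in NRRA vs NR and from 49.2% to 59.3% in NR vs RA. With offsets for GC content and length, alone or with the replicate block, the median in NRRA vs Veh was -0.492, NRRA vs RA gave 0 higher, NR vs RA 11 lower, and the interaction 4 below and 5 above 0. *Npm1* then reversed, to -0.175 in RA vs Veh and -0.089 in NRRA vs NR. DESeq2 gave 0 genes higher in NR vs Veh and in NRRA vs RA, 1 lower in NR vs RA, and 0 below and 1 above 0 for the interaction, where it called 1587 genes in all and edgeR 2679. DESeq2's size factors gave 0 higher in NRRA vs RA. With a fold change of at least 2, 2 genes were lower in NRRA vs Veh, 1 in NRRA vs NR and 0 in the others. With the replicate block alone, RA vs Veh gave 32 genes lower, NR vs Veh 25 and NRRA vs Veh 35, NRRA vs RA 26 and NRRA vs NR 29, and the counts of the interaction were the same. Leaving out each library in turn gave 0 to 2 genes higher in RA vs Veh, 0 to 3 higher in NR vs Veh with a median of -0.228 to -0.148, 16 to 32 lower and 0 to 1 higher in NRRA vs RA, 1 to 7 lower in NR vs RA, and 0 to 7 below and 0 to 3 above 0 for the interaction. Some lower calls were lost in at least 1 of these fits. In RA vs Veh they were those of *Polr1a*, *Polr1e*, *Rrn3*, *Ubtf*, *Gnl3*, *Wdr75*, *Utp20* and *Nip7*. In NR vs Veh they were those of *Polr1a*, *Nop58*, *Utp20*, *Nob1*, *Tsr1*, *Nop16* and *Rrp1b*, and in NRRA vs Veh that of *Ncl*. In NRRA vs NR they were those of *Polr1e*, *Ubtf*, *Ncl*, *Nop58*, *Utp20* and *Wdr12*. A condition left with 1 library was assumed to vary like the others. Causes were not tested. Depth did not limit these genes, but 2 libraries per condition limit the precision of changes near 0.1 on the log2 scale.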

Other observations

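The lists of other pathway genes did not all follow the same split. Of all genes tested, 23.4%, 22.2% and 28.7% were lower than Veh in RA, NR and NRRA, and 21.7% were higher in NR. In NR, the shares of lower genes among other RNA polymerase I factors (20%) and the exosome (18.2%) were close to or under this. Of 10 other RNA polymerase I factors, 4 were lower and 2 higher in RA, 2 lower and 4 higher in NR, and 4 lower and 2 higher in NRRA than in Veh, with medians of -0.096, 0.158 and -0.060. Of 45 other small-subunit factors, 28, 32 and 36 were lower in RA, NR and NRRA, with medians of -0.195, -0.218 and -0.376, beside -0.249, -0.084 and -0.386 for the 11 members of that group. The difference between both lists was not tested, and with offsets for GC content and length the NR median of the 11 members was -0.151. Of 47 other large-subunit factors, 29, 28 and 37 were lower, with medians of -0.202, -0.187 and -0.320. Of 10 other factors of snoRNP assembly, 6, 5 and 7 were lower and 0 were higher. Of the 11 tested genes of the RNA exosome, which trims and degrades precursor RNA, 6, 2 and 6 were lower and 0 were higher, with medians of -0.191, -0.101 and -0.233.

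Some members carry snoRNA genes within them, which are cut from their introns. GENCODE placed snoRNA genes on the same strand within 7 members, with 5 in *Nop56*, 4 in *Nop58*, 3 each in *Ncl*, *Gnl3* and *Wdr43*, 2 in *Tsr1* and 1 in *Dkc1*. In NRRA vs Veh all 7 were lower (median -0.386, range -0.668 to -0.132), as were 28 of the other 32 members (median -0.445). In RA vs Veh 4 of the 7 were lower (median -0.196) and 27 of the 32 (median -0.255). In NR vs Veh 4 of the 7 (median -0.114) and 22 of the 32 (median -0.229) were lower. The difference between both sets was not tested.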
